A study of Homo sapiens with 10 samples.

Results

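The NKX2-1, NKX2-8 and PAX9 locus on human chromosome 14 was described through 5 protein-coding genes. In order of coordinate these were *MBIP*, *NKX2-1*, *NKX2-8*, *PAX9* and *SLC25A21*, taken by name from the 31017 genes of an RNA-seq count table. The promoter of each gene was the baited fragment that holds the gene start, which gave 5 of the 21833 baits in the promoter capture Hi-C (PCHi-C) lists. The genes were selected on the counts and interaction calls of these same samples, so their own values are given as a description, without a test.

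The samples came from the human embryonic stem cell (ESC) line H9, also named WA09, and from neuroectodermal cells (NECs) made from it over 7 days of differentiation, with no genetic change or drug compared. Each cell type was profiled by PCHi-C and by RNA-seq in 2 biological replicates, all derived from this 1 line, and ESC replicate 2 of PCHi-C combined technical replicates. PCHi-C enriches ligation products that contain a promoter, at the resolution of fragments cut by the restriction enzyme HindIII. A promoter-interacting region (PIR) is a fragment that a bait was called to contact.

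The homeobox factor NKX2-1 specifies the thyroid, the lung and the ventral forebrain, and its neighbour NKX2-8 belongs to the same NK family. PAX9 is a paired box factor of the pharyngeal pouches and the tooth mesenchyme, MBIP is a subunit of the ATAC histone acetyltransferase complex that also binds the kinase MAP3K12, and SLC25A21 carries 2-oxoadipate and related acids into mitochondria. Promoters of silent developmental genes in pluripotent cells are often rich in CpG dinucleotides and marked by Polycomb proteins, and many of them contact one another over long distances.

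The RNA libraries held 19234087 and 25356382 counts in ESC replicates 1 and 2, and 20793224 and 24323762 in the NEC replicates. Summed CPM (counts scaled to a common library size by TMM) of 10 pluripotency genes were 6780 and 7280 in the ESC libraries and 1100 and 1690 in the NEC libraries. Those of 10 neuroectoderm genes were 66.8 and 32.8 against 1540 and 1210. The ESC RNA libraries shared 1 sequencing lane and the NEC libraries shared another, and lane and cell type cannot be told apart.

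The promoters are shown first because their baits anchor every contact described, and because CpG content differed between the members. Each sequence runs 5′ to 3′ on the strand of the gene, from 250 bases before to 50 bases after the gene start in the count table (GRCh37), with CpG dinucleotides in capitals.
NKX2-1 promoter, chr14:36990305-36990604, minus strand: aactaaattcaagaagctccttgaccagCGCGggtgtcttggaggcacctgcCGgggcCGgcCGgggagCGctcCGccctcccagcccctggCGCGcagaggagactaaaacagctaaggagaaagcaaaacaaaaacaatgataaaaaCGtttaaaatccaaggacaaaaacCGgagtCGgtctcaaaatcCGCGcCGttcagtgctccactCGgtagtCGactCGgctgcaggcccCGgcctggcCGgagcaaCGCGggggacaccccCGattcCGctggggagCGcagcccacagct
NKX2-8 promoter, chr14:37051763-37052062, minus strand: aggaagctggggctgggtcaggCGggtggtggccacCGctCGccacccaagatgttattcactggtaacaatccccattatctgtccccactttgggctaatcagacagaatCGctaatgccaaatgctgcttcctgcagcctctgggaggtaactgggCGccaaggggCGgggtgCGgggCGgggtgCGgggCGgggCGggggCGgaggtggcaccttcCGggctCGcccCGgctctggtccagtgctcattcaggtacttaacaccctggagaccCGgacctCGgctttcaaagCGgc
PAX9 promoter, chr14:37126523-37126822, plus strand: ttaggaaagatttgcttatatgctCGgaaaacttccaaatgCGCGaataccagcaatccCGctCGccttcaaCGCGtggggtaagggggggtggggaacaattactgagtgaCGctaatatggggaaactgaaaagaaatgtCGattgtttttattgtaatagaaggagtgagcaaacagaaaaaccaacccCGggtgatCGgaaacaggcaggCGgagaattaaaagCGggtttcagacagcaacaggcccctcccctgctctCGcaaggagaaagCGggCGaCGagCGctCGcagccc
MBIP promoter, chr14:36789833-36790132, minus strand: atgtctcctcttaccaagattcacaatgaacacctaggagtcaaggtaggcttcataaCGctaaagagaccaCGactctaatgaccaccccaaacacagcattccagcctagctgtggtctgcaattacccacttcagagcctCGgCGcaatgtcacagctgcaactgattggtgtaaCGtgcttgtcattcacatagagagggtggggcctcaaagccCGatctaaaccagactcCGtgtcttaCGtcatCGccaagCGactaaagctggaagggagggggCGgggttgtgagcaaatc

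The *NKX2-1* window held 25 CpGs, more than 74.6% of the 30965 windows cut in the same way, whose median was 10. *NKX2-8* had 18 CpGs and *PAX9* had 19, more than 62.9% and 64.4% of windows. *MBIP*, with 11, lay near the median. The window at the listed start of *SLC25A21* had 0 CpGs and a GC content of 34.0%, against 60.3% at *NKX2-1*. In the RefSeq promoter windows (GRCh38.p14), which start from another annotated position, *SLC25A21* had 16 CpGs and the median was 14, so the 0 belongs to the start used in the count table. The 2 RefSeq windows of *NKX2-1* held 11 and 21 CpGs, the 2 of *PAX9* held 12 and 19, *NKX2-8* held 17 and *MBIP* held 12.

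*NKX2-1* and *NKX2-8* lay at or near the detection floor and *PAX9* near 1 CPM in both cell types, whereas *MBIP* and *SLC25A21* were detected in every library. *NKX2-1* (ENSG00000136352, chr14:36985602-36990354, minus strand) had 2 and 1 counts in the ESC libraries and 1 and 1 in the NEC libraries. All 4 values lay at or below the floor of 3 counts, which is 0.121 to 0.159 CPM in these libraries, so no fold was computed. The antisense RNA NKX2-1-AS1, which starts on the same bait, had 1 count in 1 ESC library and 0 in the others. *SFTA3*, a surfactant-associated gene that starts on a separate bait beside it, had 0 in all 4.

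*NKX2-8* (ENSG00000136327, chr14:37049216-37051812, minus strand) had 0 counts in both ESC libraries, and 1 and 4 in the NEC libraries. Only NEC replicate 2 exceeded the floor, by 1 count, and the gene did not pass the filter on low counts. *PAX9* (ENSG00000198807, chr14:37126773-37148920, plus strand) had 21 and 36 counts in ESCs and 18 and 19 in NECs. That is 1.28 ± 0.243 CPM (SD, n = 2) in ESCs and 0.806 ± 0.0511 CPM in NECs, with the lower ESC library at 1.11 and the higher NEC library at 0.842. The log2 fold change (NEC over ESC) was -0.68 with a standard error of 0.33. In bulk RNA, fewer expressing cells and less RNA per cell cannot be told apart.

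*MBIP* (ENSG00000151332, chr14:36767770-36789882, minus strand) was the most abundant of the 5 in CPM, with 490 and 584 counts in ESCs and 753 and 928 in NECs. These were 24.8 ± 1.65 CPM (SD, n = 2) and 36.4 ± 1.68 CPM, a log2 fold change of 0.56 (standard error 0.11). Both NEC libraries lay above both ESC libraries. The CPM of *PAX9* and *SLC25A21* did not overlap between the cell types either, and the share of all tested genes without overlap was not computed. *SLC25A21* (ENSG00000183032, chr14:37147636-37642071, minus strand) had 120 and 155 counts in ESCs and 131 and 122 in NECs. Its CPM was 6.36 and 6.27 against 6.13 and 4.95, and its log2 fold change of -0.19 was smaller than its standard error of 0.21. No member reached the call used here, an edgeR adjusted p under 0.05 with an absolute log2 fold change above 1.5, which 11.4% of the 17564 tested genes reached as higher in NECs and 9.68% as lower.

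**Figure D1:**
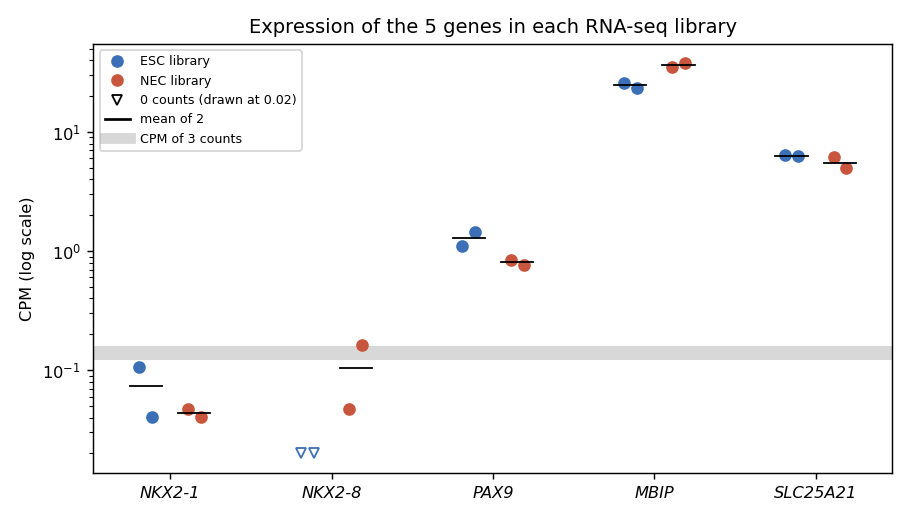
CPM of each gene (log axis) in the 2 ESC and 2 NEC RNA-seq libraries, with the mean of each pair as a line and the CPM of 3 counts as a grey band. *NKX2-1* lies below the band in every library, *PAX9* near 1 CPM, and *MBIP* between 23.6 and 37.6 CPM.

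Reads were counted without regard to strand, and several members overlap other genes. The antisense RNA RP11-537P22.1 at the start of *SLC25A21* had 48 and 43 counts in ESCs and 97 and 95 in NECs, and the 3′ ends of *PAX9* and *SLC25A21* overlap, so reads in these stretches cannot be assigned to one gene. Among all tested genes with a symbol, those whose log2(CPM + 0.5) over the 4 libraries lay nearest to *MBIP* were *GNE*, *PTPN21* and *PML*, at Euclidean distances of 0.105 to 0.108. For *PAX9* they were *CNTF* at 0.115, *TBX6* at 0.242 and SPIN4-AS1 at 0.248. *SLC25A21* had *C17orf48*, *CSPG4* and *SERPINI1*, at 0.168 to 0.208.

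The *NKX2-1* promoter was among the most connected baits of the genome in both cell types although its gene was not detected above the floor. The lists hold contacts with a CHiCAGO score of at least 12, the score being a distance-weighted p-value on a negative log scale. They exist for each replicate alone and for both replicates of a cell type scored together (merged). PIRs were counted on the same chromosome only. The bait of *NKX2-1* (chr14:36985647-36991402) had 26 PIRs in the merged ESC list and 25 in the merged NEC list, more than 97.7% and 97.6% of the baits in each list. Of these, 10 were the same fragment in both cell types. The replicate lists gave 16 and 12 PIRs for ESCs against 11 and 10 for NECs, and both NEC numbers lay below both ESC numbers.

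*PAX9* (bait chr14:37125742-37128055) had 14 merged PIRs in ESCs and 10 in NECs, more than 90.7% and 84.2% of baits. Its replicate numbers, 15 and 11 in ESCs and 14 and 11 in NECs, overlapped. *NKX2-8* (bait chr14:37042565-37053959) had 8 and 13 merged PIRs. Its replicates had 5 and 4 in ESCs against 9 and 9 in NECs, and both NEC numbers were higher.

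In the merged lists *MBIP* and *SLC25A21* had the fewest contacts of the 5. *MBIP* (bait chr14:36789369-36790208, 840 bp long) had 5 merged PIRs in ESCs and 6 in NECs, and its replicates gave 3 and 1 (ESCs) and 4 and 5 (NECs). *SLC25A21* (bait chr14:37635788-37647454) had 3 merged PIRs in each cell type, but 8 and 7 in those of ESCs alone and 10 and 12 in those of NECs alone, so here scoring the replicates together left fewer contacts than either replicate alone. In single lists *SLC25A21* had more PIRs than *NKX2-8* in every replicate, and in NEC replicate 2 the most of the 5. Of the baits genome-wide, 13.1% had more PIRs in both NEC than in both ESC replicates and 12.9% had fewer, against 3 members with more (*NKX2-8*, *MBIP* and *SLC25A21*) and 1 with fewer (*NKX2-1*).

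**Figure D2:**
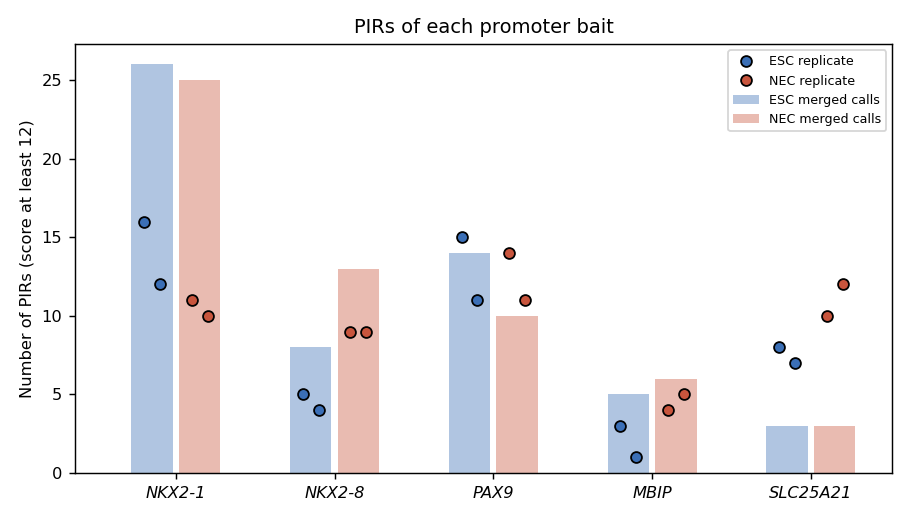
Number of PIRs of each bait in the merged list of each cell type (bars) and in each replicate list (points). The replicate numbers of *NKX2-1* are lower in NECs (11 and 10 against 16 and 12), those of *NKX2-8* are higher (9 and 9 against 5 and 4), and those of *SLC25A21* exceed its merged numbers.

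In the merged ESC list the highest-scoring contacts of *NKX2-1* and *PAX9* lay at or beside each other's promoters and at the *FOXA1* end of the locus. The highest merged ESC score of *NKX2-1*, 29.08, was to chr14:37117622-37125741, the fragment next to the *PAX9* bait, with 19.72 and 16.98 in the replicates. In NECs this contact had 20.5 merged and 14.55 and 13.44 in the replicates, lower than in both ESC replicates. The other *NKX2-1* contact called in all 4 replicates spanned 1075 kb to chr14:38058057-38068157, a baited fragment that holds the start of *TTC6* and an exon of *FOXA1*. *FOXA1* encodes a forkhead pioneer factor of endoderm and floor plate. Its start in the count table lay on the adjoining bait, chr14:38068158-38072778. In the GENCODE annotation, every *FOXA1* transcript start that fell on a bait lay on the contacted fragment. This contact scored 22.91 and 17.24 in the ESC replicates against 12.77 and 16.69 in NECs, so both ESC values were higher, and the merged scores were 25.13 and 15.78.

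The *PAX9* bait contacted that same fragment over 936.2 kb in all 4 replicates, at 19.69 and 19.39 in ESCs and 15.61 and 13.09 in NECs. *SLC25A21* did so over 421.5 kb, at 14.46 and 15.51 against 13.19 and 12.05. Both ESC scores were above both NEC scores for *PAX9* and for *SLC25A21*. The share of all pairs called in all 4 replicates that show this order was not computed. The order is therefore not read as a trait of the locus, nor is that of the *NKX2-1* contacts above. *FOXA1* itself rose in NECs, from 4 and 4 counts to 141 and 53 (log2 fold change 4.52, standard error 0.72, edgeR adjusted p = 0.00222). Scores grow with read number as well as with contact frequency, and the lists give no read numbers.

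Of the fragments shown here, those beside *PAX9* and at *FOXA1* anchor the contacts called in all 4 replicates. The *SLC25A21* intron fragment was contacted by *PAX9* in both NEC and no ESC replicate. The fragment at the lower-coordinate end of LINC00609 had the highest merged NEC score of *NKX2-1* on its *MBIP* side. That fragment is itself a bait and holds the start of RP11-259K15.3. For each fragment, the 200 bases with the most CpGs are given 5′ to 3′ (GRCh37), CpGs in capitals.
Beside PAX9, chr14:37125393-37125592, plus strand: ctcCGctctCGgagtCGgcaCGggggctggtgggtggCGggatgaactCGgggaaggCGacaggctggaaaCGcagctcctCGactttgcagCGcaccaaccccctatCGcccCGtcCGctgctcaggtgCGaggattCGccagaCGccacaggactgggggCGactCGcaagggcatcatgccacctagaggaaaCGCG
FOXA1 and TTC6, chr14:38064216-38064415, plus strand: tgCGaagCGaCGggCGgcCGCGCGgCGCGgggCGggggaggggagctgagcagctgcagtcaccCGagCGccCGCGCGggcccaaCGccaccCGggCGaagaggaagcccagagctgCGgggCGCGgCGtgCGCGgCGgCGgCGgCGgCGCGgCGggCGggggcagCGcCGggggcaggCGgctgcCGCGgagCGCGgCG
SLC25A21 intron, chr14:37406715-37406914, plus strand: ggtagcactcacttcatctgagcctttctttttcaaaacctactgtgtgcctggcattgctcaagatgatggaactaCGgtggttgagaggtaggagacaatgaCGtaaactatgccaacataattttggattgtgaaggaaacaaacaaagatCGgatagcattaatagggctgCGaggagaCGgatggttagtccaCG
LINC00609 end, chr14:36538048-36538247, plus strand: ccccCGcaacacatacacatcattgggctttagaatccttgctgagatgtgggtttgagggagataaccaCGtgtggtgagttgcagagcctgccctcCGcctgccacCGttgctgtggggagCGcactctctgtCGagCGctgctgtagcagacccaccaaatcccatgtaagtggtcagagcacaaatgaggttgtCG

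The window at *FOXA1* and *TTC6* held 40 CpGs, more than the densest window of 99.6% of 1762 HindIII fragments of chromosome 14 of similar length. The window beside *PAX9* held 20, more than 93.8% of 2434. Both of these fragments were contacted in NECs as well as in ESCs. The window in the intron of *SLC25A21* had 6 CpGs (more than 22.4% of 2731) and that at the end of LINC00609, a long non-coding RNA gene, had 8 (more than 68.1% of 4020).

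**Figure D3:**
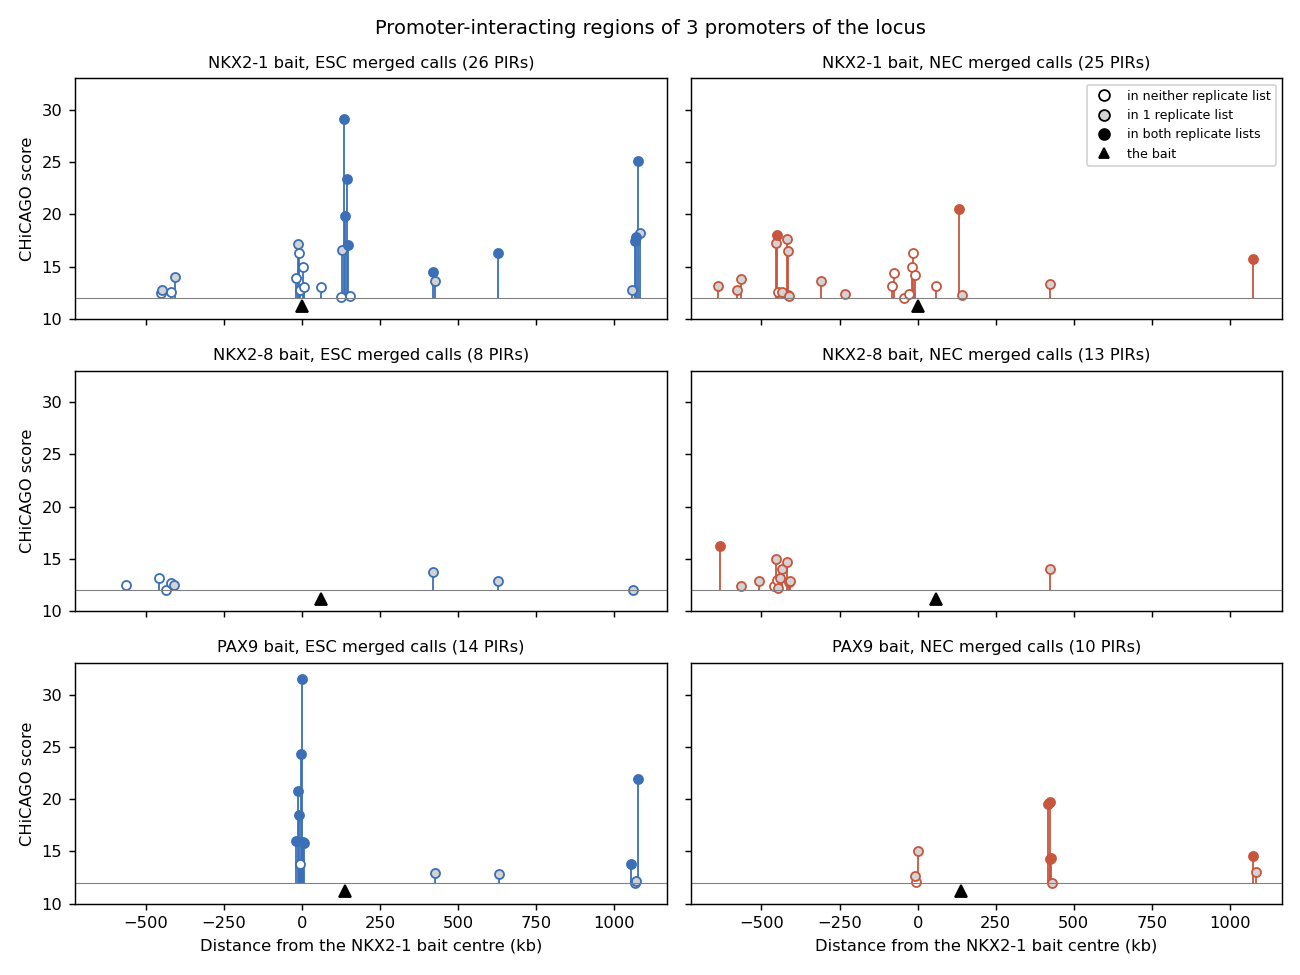
CHiCAGO score of each PIR in the merged ESC (left) and NEC (right) lists for the baits of *NKX2-1*, *NKX2-8* and *PAX9*, by distance from the centre of the *NKX2-1* bait in kb, with filled points for contacts also called in both replicates. The tallest ESC contacts join *NKX2-1* to the fragment beside the *PAX9* bait (29.08) and *PAX9* to the *NKX2-1* bait (31.52). In NECs the tallest contacts of *PAX9* lie near 420 kb (19.58 and 19.72).

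Of the 124 pairs of a member bait and a fragment called in any replicate, 10 were called in both ESC and no NEC replicate, 2 in both NEC and no ESC replicate and 5 in all 4. Of all 272310 pairs on 1 chromosome called in any replicate, these classes held 2.56%, 2.47% and 2.85%. *NKX2-1* had 6 of the 10 contacts found in both ESC replicates only. They reached the *PAX9* bait (replicate scores 12.88 and 14.38), a *PAX9* exon fragment at chr14:37134241-37137370 (13.22 and 12.15), 2 intron fragments of *SLC25A21* at chr14:37402941-37410305 (12.69 and 12.21) and chr14:37612482-37619512 (15.29 and 12.79), and 2 fragments beside *FOXA1* at chr14:38051025-38057852 (15.12 and 17.29) and chr14:38057853-38058056 (19.16 and 12.98). The last of these is only 204 bp long. Scored from the *NKX2-1* bait, none of the 6 was in the merged NEC list. Scored from the *PAX9* bait, the pair of *NKX2-1* and *PAX9* was in that list (15.06) and in NEC replicate 2 (14.2), so this pair was not particular to ESCs.

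*PAX9* had 3 such contacts, to chr14:36964234-36974152 (13.2 and 13.43) and chr14:36974153-36975775 (17.81 and 12.53), both in introns of *SFTA3*, and to chr14:36993817-36994942 (13.02 and 13.58), at coordinates just above the *NKX2-1* bait. The remaining 1 joined *SLC25A21* to chr14:36640933-36646791, which holds the start of RP11-259K15.4, at 12.22 and 13.6, and this pair was missing from the merged ESC list. Of the 2 contacts found in both NEC replicates only, 1 joined *PAX9* to the intron fragment of *SLC25A21* at chr14:37402941-37410305 (17.04 and 17.63, merged 19.58). The same fragment was a replicated ESC contact of *NKX2-1*. The other joined *NKX2-8* to chr14:36352485-36362186 in an intron of *BRMS1L* (13.33 and 14.91, merged 16.22).

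The highest merged NEC score of *PAX9*, 19.72, belonged to chr14:37411556-37415457, also in the *SLC25A21* intron, at 17.17 and 18.48 in the NEC replicates and 13.95 in ESC replicate 1 alone. Over the 53.8 kb around these fragments *PAX9* had 6 and 4 PIRs in the NEC replicates and 2 and 0 in the ESC replicates. At the *NKX2-1* end, chr14:36902506-37146132, the order was opposite, with 7 and 7 *PAX9* PIRs in the ESC replicates against 0 and 3 in NECs. These stretches were set after the calls were seen, by joining fragments less than 50 kb apart.

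The side on which *NKX2-1* found its contacts also differed between the cell types. In ESCs, 13 and 11 of its PIRs lay at higher coordinates, towards *PAX9* and *FOXA1*, and 3 and 1 at lower coordinates, towards *MBIP*. In NECs, 4 and 3 lay at higher and 7 and 7 at lower coordinates. The share at lower coordinates was thus 18.8% and 8.3% in ESCs, and 63.6% and 7 of 10 PIRs in NECs, a mean difference of 53.3 percentage points. Of 527 baits with at least 10 PIRs in every replicate, 99.8% changed less. The cut-off of 10 equals the smallest replicate number of *NKX2-1*. The members were chosen on these calls, so ranks of this kind describe them and are not a test. The share was higher in both NEC than in both ESC replicates for 15.4% of these baits and lower for 13.7%.

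*PAX9* differed the other way, with 53.3% and 63.6% of its PIRs at lower coordinates, towards *NKX2-1*, in ESCs and 7.1% and 36.4% in NECs. Its mean difference was -36.7 percentage points, and 98.9% of baits changed less. Neighbouring fragments are not independent contacts, so adjoining PIRs were also counted as 1 block, a choice made after seeing the data. For *NKX2-1* the merged lists then gave 4 blocks at lower and 9 at higher coordinates in ESCs, against 14 and 5 in NECs. For *PAX9* they gave 3 and 4 in ESCs and 2 and 2 in NECs, so its difference in side was not seen in blocks.

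*NKX2-8* had too few PIRs for that comparison. Its merged list held 5 PIRs at lower and 3 at higher coordinates in ESCs, and 12 and 1 in NECs. In the merged NEC list, 10 of its 13 PIRs lay in the 106.6 kb of chr14:36476827-36583455, over and beside LINC00609. The merged lists gave *NKX2-1* 4 PIRs there in ESCs and 8 in NECs. There *NKX2-8* had 5 and 3 PIRs in the NEC replicates and 2 and 0 in the ESC replicates, while *NKX2-1* had 5 and 3 against 3 and 0. The strongest *NKX2-1* contact of this stretch, chr14:36537499-36540803, scored 14.4 and 13.95 in the NEC replicates and 12.56 in ESC replicate 1.

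**Figure D4:**
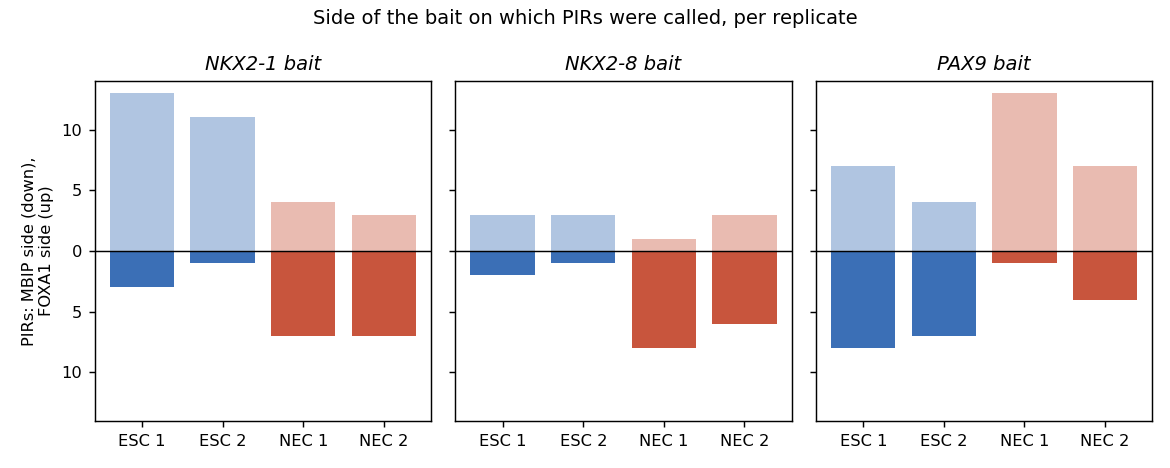
Number of PIRs at lower coordinates than the bait (towards *MBIP*, drawn downwards) and at higher coordinates (towards *FOXA1*, drawn upwards) in each replicate list. *NKX2-1* has 13 and 11 PIRs upwards in ESCs and 4 and 3 in NECs, while *PAX9* has 8 and 7 downwards in ESCs and 1 and 4 in NECs.

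Some of the members' promoters contacted one another, in 5 of 10 possible pairs in the merged ESC list and 4 of 10 in the merged NEC list. The strongest was between *NKX2-1* and *PAX9*, 138.4 kb apart. Scored from the *PAX9* bait it had 17.75 and 24.37 in the ESC replicates (merged 31.52) and, in NECs, 14.2 in replicate 2 alone (merged 15.06). Scored from the *NKX2-1* bait it had 12.88 and 14.38 in ESCs (merged 19.84) and was in no NEC list.

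*SLC25A21* contacted the *NKX2-8* bait, 593.4 kb away, in every replicate, at 17.12 and 13.99 in ESCs and 13.94 and 14.56 in NECs, and these values overlapped. It contacted *PAX9* at 15.49 and 12.09 in ESCs and at 12.24 in NEC replicate 1. Its contact with *NKX2-1* was called in 1 replicate of each cell type, at 13.83 in ESC replicate 2 and 17.98 in NEC replicate 1. *MBIP* contacted the *NKX2-1* bait in ESC replicate 1 alone (13.1), and *NKX2-1* with *NKX2-8* passed in the merged lists only (13.04 and 13.11). No contact was called from the *NKX2-8* bait to any other member, and none between *MBIP* and *NKX2-8*, *PAX9* or *SLC25A21*.

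Members also shared PIRs. How often other sets of neighbouring baits share PIRs, or contact one another, was not computed. Neither is therefore read as a trait of the locus. Of the 37 fragments that members contacted in the merged ESC list, 16 (43.2%) were contacted by more than 1 member, and in NECs 14 of 41 (34.1%). In the replicate lists the shares were lower, at 24.3% and 25.9% in ESCs and 17.9% and 4.7% in NECs. *NKX2-1* and *PAX9* shared 10 merged PIRs in ESCs and 3 in NECs, but 3 and 4 in single ESC lists and 4 and 2 in single NEC lists, which overlap. *NKX2-1* and *NKX2-8* shared 3 merged PIRs in ESCs and 7 in NECs, and their replicates had 3 and 1 against 2 and 1. The fragment at *FOXA1* and *TTC6* was reached by 3 members in each ESC replicate, and by 3 and 4 in the NEC replicates.

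Of 35 other genes within 1.5 Mb, 12 could be tested and 1, *FOXA1*, was called (2 without NEC replicate 2), while 21 were at or below the floor in all 4 libraries. Over all genes tested, 11.4% were called higher and 9.68% lower. The median log2 fold change of the 12 was -0.33, against 0.01 over all genes tested. *TTC6*, whose start shares the *FOXA1* fragment, had 1 and 1 counts in ESCs and 14 and 1 in NECs.

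Of 23 tested genes of ventral patterning and the Sonic hedgehog (SHH) pathway, 11 were called higher in NECs and 2 lower (median log2 fold change 1.22). Of the 11, 3 were at the floor in ESCs and passed the filter through NECs alone. The hedgehog co-receptors *BOC* (97 and 103 counts against 7323 and 4942, log2 fold change 5.88, standard error 0.31, edgeR adjusted p = 4.26e-05) and *GAS1* (34 and 49 against 1468 and 991, 4.83) were higher. The genes called lower were *LHX6*, a factor of ventral forebrain interneurons (41 and 54 against 8 and 9, -2.54), and *FOXA2*, a floor plate factor (97 and 331 against 57 and 40, -2.13). Targets of the pathway were split. *GLI1* had 230 and 281 counts against 109 and 148 (-1.08) and did not reach the fold required. *PTCH1* was called higher, with 666 and 743 against 2431 and 2564 (1.74), and *HHIP* had 16 and 16 against 27 and 43 (1.02) and was not called. The ligand *SHH* was low in every library, with 7 and 26 counts against 19 and 6, and was not called. The ventral factors *NKX2-2*, *LHX8* and *GSX2* had at most 3 counts in every library.

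Other NK homeobox genes were split, with 2 of 6 tested genes called higher and 1 lower, and 1 higher without ESC replicate 2. *NKX3-2*, a factor of the axial skeleton, had 13 and 23 counts in ESCs and 100 and 172 in NECs (log2 fold change 2.83). *NKX6-2* had 2 and 2 against 18 and 12, at least 4.74-fold higher against a floor of 3 counts per library, and *NKX1-2* fell from 240 and 590 to 12 and 82 (-3.20). The other 6 listed, *NKX2-2* among them, were not tested and had at most 3 counts in every library.

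Of 8 other *PAX* genes, 6 passed the filter on low counts. Of these, 3 (*PAX2*, *PAX7* and *PAX8*) were at the floor in ESCs and passed through NECs alone, so their direction was set by the filter. The other 3 were called higher in NECs, among them *PAX5* (10 and 13 counts against 140 and 200, log2 fold change 3.78). The median of the 6 was 7.57, or 5.70 with the floor genes at their bound. *PAX2*, of the midbrain-hindbrain boundary and kidney, had 0 and 0 counts against 130 and 69 (at least 31.7-fold higher). *PAX8*, a thyroid and kidney factor, had 1 and 0 against 412 and 399 (at least 126-fold). *PAX3* had 5 and 8 against 1416 and 441, and *PAX7* had 0 and 1 against 272 and 53, so for the latter pair of dorsal and neural crest factors NEC replicate 1 was the higher library.

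Of 8 tested lung and thyroid genes, 2 were called higher in NECs and 4 lower (2 lower without ESC replicate 2), and their median was -1.45. Of the 6 called, 3 were at the floor in 1 cell type. The secretoglobin *SCGB3A2* had 11505 and 15695 counts in ESCs and 39 and 88 in NECs (log2 fold change -7.83, standard error 0.26, edgeR adjusted p = 1.37e-05). The surfactant protein gene *SFTPB* had 11 and 16 against 0 and 0, at least 4.69-fold lower in NECs. Higher in NECs were *PAX8*, given above, and the lipid transporter *ABCA3* (212 and 257 against 1014 and 950). *SCGB3A2* was high in the ESC libraries, in which *NKX2-1* had 2 and 1 counts.

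Of 12 definitive endoderm genes, 8 were lower in NECs and 2 higher, with a median of -2.20. *EOMES* had 289 and 1133 counts in ESCs against 10 and 9 in NECs, *CER1* had 1004 and 2806 against 15 and 64, and *MIXL1* had 193 and 575 against 5 and 9. For all 3 of these genes ESC replicate 2 was the higher ESC library. The list's summed level was 117 and 244 CPM in the ESC libraries and 60.4 and 40.5 CPM in the NEC libraries. The part of such cells in the contacts of the same cell type was not tested.

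Of 10 tested pharyngeal and tooth partners of PAX9, 6 were called higher and 2 lower, with a median of 2.19. *MSX1*, which acts with PAX9 in tooth mesenchyme, had 3 and 4 counts in ESCs and 494 and 145 in NECs (log2 fold change 6.44). *HOXA3* had 0 and 0 against 30 and 23 (at least 8.33-fold higher).

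Of 12 tested other subunits of the ATAC complex, to which MBIP belongs, 1 was called, the acetyltransferase *KAT2B*, at 49 and 55 counts in ESCs and 225 and 202 in NECs (log2 fold change 1.96, standard error 0.24, edgeR adjusted p = 0.000727), and the median was 0.06. An unadjusted edgeR p under 0.05 was reached by 9 of the 12. Over all genes, 11.4% were called higher and 9.68% lower. Of 8 genes of lysine and 2-oxoadipate breakdown, the pathway that SLC25A21 feeds, 0 were called by edgeR and 0 by DESeq2, 7 had an unadjusted edgeR p under 0.05, and the median was -0.34. *AASS*, the first enzyme of that pathway, had 3326 and 3661 counts against 2134 and 2462 (log2 fold change -0.70, adjusted p = 0.00186), below the fold required for a call. The markers of the labels moved as follows, with 9 of 10 pluripotency genes lower in NECs (median -4.12) and 10 of 10 neuroectoderm genes higher (median 5.62).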

How the data were processed

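PCHi-C and RNA-seq of H9 ESCs and NECs were analysed, with 2 biological replicates of each, whereas conventional Hi-C was not analysed here. The authors trimmed RNA reads, aligned them to GRCh37 (TopHat2 2.0.8b and Bowtie 1.0.0 in the submitters' processing notes) and counted them per gene without strand, and the deposited counts are not normalized. The authors also scored pairs of HindIII fragments with CHiCAGO for each replicate and for both replicates together, and the deposited scores are of at least 12. The depth behind a score is unknown. Each call is written from both ends and some second entries are missing, so only first entries, which were complete, were read.

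Genes were filtered by filterByExpr (minimum count 10), TMM normalized and tested with the quasi-likelihood test of edgeR 4.0.16 in R 4.3.3, with calls at an adjusted p (Benjamini-Hochberg) under 0.05 where log2 fold changes exceeded 1.5 in size. All 17564 genes were fitted together. The 2 replicates were labelled biological, and p-values measure the spread between them. Lists were read in Python 3.11.15 (numpy 2.4.6, pandas 2.3.3), and figures were drawn with matplotlib 3.10.9. Sequences came from GRCh37, where all 5 member baits and 91 of 91 PIRs on chromosome 14 matched a HindIII fragment. The scripts were tested on simulated data. Alternatives were DESeq2 1.42.0, other scalings, no filter, the replicate number as a block, a score of 15, PIRs within 10 kb, other transcript starts, and leaving out each replicate.

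The members and gene lists were chosen with earlier results of these data known. Named were all members, the 3 genes nearest to each in log2(CPM + 0.5), list genes by size of change among those called, and PIRs with the highest merged score or called in all replicates or in both of 1 cell type only. *LHX6*, *FOXA2*, *GLI1*, *PTCH1*, *HHIP*, *SHH*, *PAX5*, *ABCA3*, *AASS*, *TTC6* and overlapping genes were named for their role after their values were seen. Some list genes that the rule would name are not reported here.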

Additional observations from a re-analysis of the deposited data

How the results depend on the processing

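At a score of 15, PIRs in ESCs and NECs numbered 13 and 8 for *NKX2-1*, 0 and 2 for *NKX2-8*, 8 and 3 for *PAX9*, 0 and 1 for *MBIP* and 1 and 0 for *SLC25A21*. Members in contact fell to 2 pairs in ESCs and 1 in NECs, and fragments contacted by more than 1 member to 4 and 2. At this score *NKX2-1* and *PAX9* shared 4 and 0 PIRs, and *NKX2-1* and *NKX2-8* shared 0 and 1. Counting PIRs within 10 kb as shared gave 32 fragments in ESCs and 31 in NECs, 11 and 11 shared by *NKX2-1* and *NKX2-8*, and 5 shared by *NKX2-1* and *PAX9* in NECs. Using baits of any transcript start changed no PIR number.

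With 1 replicate left out, which leaves the list of the other, PIRs numbered 12 to 16 (ESCs) and 10 to 11 (NECs) for *NKX2-1*, 4 to 5 for *NKX2-8* in ESCs, 1 to 3 for *MBIP* in ESCs, and 7 to 8 and 10 to 12 for *SLC25A21*. Fragments contacted by more than 1 member ranged from 7 to 9 in ESCs and 2 to 7 in NECs, pairs of members in contact in NECs from 2 to 3, PIRs shared by *NKX2-1* and *PAX9* in ESCs from 3 to 4, and those shared by *NKX2-1* and *NKX2-8* from 1 to 3 in ESCs and 1 to 2 in NECs. In expression, leaving out 1 library gave 1 to 2 called neighbours within 1.5 Mb, 2 to 5 lung and thyroid genes called lower and 1 to 2 NK genes called higher. DESeq2's test gave 1 NK gene higher. The cause was not tested for any of these.

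Replicate numbers were shared by the cell types but did not pair the samples (r = 0.074 over 17564 genes), and with the replicate block 1987 genes were called higher and 1711 lower, against 1997 and 1700. The log2 fold changes of *PAX9* and *MBIP* ranged from -0.87 to -0.47 and from 0.48 to 0.62 over all alternatives, and that of *SLC25A21* from -0.35 to -0.05. Of the *NKX2-1* contacts, 10 in each merged list were in neither replicate list. Counts of 3 or fewer bar any statement on *NKX2-1* expression beyond the floor.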

Other observations

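The bait that holds the start of *SFTA3* (chr14:36982644-36983278), 5.6 kb from that of *NKX2-1*, shared several partners with it. It also contacted *MBIP*, at 12.48 in the merged ESC list and 16.04 in ESC replicate 2, and the bait at the listed *FOXA1* start, at 15.11 and 12.41 in the ESC replicates. Its contact with the *NKX2-1* bait scored 16.31 and 22.38 in the ESC replicates against 13.47 and 13.11 in NECs. It contacted the *FOXA1* and *TTC6* fragment at 15.07 and 17.8 in ESCs and at 12.52 in NEC replicate 1, and *PAX9* in 1 replicate of each cell type (14.53 and 13.61). Seen from the bait at *FOXA1* and *TTC6*, the contact with *NKX2-1* scored 22.36 and 17.98 in ESCs and 12.61 and 17.81 in NECs, and that with *PAX9* scored 15.32 and 14.44 in ESCs and was in no NEC replicate. From that bait, the contact with *SLC25A21* was not called in any list.

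A pair of *NKX2-1* calls lay far from the locus, each in 1 list. ESC replicate 1 had a contact to chr14:61107551-61108444 (score 14.73), and ESC replicate 2 had one, not included in its 12 PIRs, to chr1:34813775-34820992 (14.21). Neither was in the merged list or the other replicate.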
